A study of Saccharomyces cerevisiae with 6 samples.

Results

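The 10 genes described here encode the enzymes that make serine and glycine in Saccharomyces cerevisiae and the subunits proper to the glycine cleavage complex: SER3, SER33, SER1, SER2, SHM1, SHM2, GLY1, GCV1, GCV2 and GCV3. They were taken by gene symbol from the array annotation, and all 10 of 10 were found among the 5539 genes measured, each with 2 spots per array. RNA of a met4 deletion mutant (Cy3), taken after 1 hour in 0.2 mM As(III), arsenite, was hybridised together with RNA of wild type cells treated in the same way (Cy5) on each of 6 two-colour arrays, which form 1 group of 6 replicates. Met4 is the transcriptional activator of the sulfur amino acid genes. Mutant and wild type were both under arsenite, and no unexposed cells were analysed here, so a difference that exists without arsenite cannot be told apart from one that needs it. The sources used here name neither the strain background nor the extent of the deletion, nor do they say whether the replicates were separate cultures, so SDs and p-values describe the spread between arrays, which may be technical.

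Serine is made from the glycolytic intermediate 3-phosphoglycerate by the phosphoserine branch, in which a dehydrogenase (Ser3 or Ser33), an aminotransferase (Ser1) and a phosphatase (Ser2) act in turn. Serine hydroxymethyltransferase, mitochondrial as Shm1 and cytosolic as Shm2, interconverts serine and glycine and passes a one-carbon unit to tetrahydrofolate, and threonine aldolase (Gly1) makes glycine from threonine. The glycine cleavage complex of mitochondria breaks glycine down and gives its carbon to folate, with Gcv2 as the P subunit (decarboxylase), Gcv3 as the lipoyl-carrying H subunit and Gcv1 as the T subunit (aminomethyltransferase). Serine is also the carbon partner of homocysteine in cysteine synthesis, which ties the pathway to sulfur metabolism.

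Each array was centred on the median of its spots, and values are the resulting log2 ratios, given as mean ± SD over n = 6 arrays. Neither the log base, taken as 2, nor the numerator is stated in the sources used here. Mutant over wild type is called likely, from the order in the sample titles and from MET4 (YNL103W). After centring MET4 was below 0 on all 6 arrays (-0.59 ± 0.25, limma, adjusted p = 0.0112), as were 8.18% of all genes. The dyes leave the numerator unsettled: with the mutant in Cy3, a ratio of Cy5 over Cy3 would have wild type as numerator. Before centring MET4 stood at 0.59 on array 3 and was not past the threshold (adjusted p = 0.600). "Higher" and "lower" carry that proviso. Were the values natural logarithms, each would be 1.44 log2 units per unit printed. The dyes were never swapped, so a gene's own dye bias cannot be told apart from the effect of the mutation. Array medians before centring ran from -0.95 to 0.92, and r across genes lay between 0.0817 and 0.759 for pairs of arrays (a description, since genes are not independent).

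The 10 genes lay on both sides of the array median. The dehydrogenase genes SER33 and SER3 and the phosphatase gene SER2 lay low in the met4 mutant, whereas GCV1, GCV2, GCV3 and the cytosolic SHM2 lay high. SER1, GLY1 and the mitochondrial SHM1 stood between them. The 10 genes had been proposed with earlier results of this comparison known, so their values are a description and no test of them is given. In the fit across all 5539 genes (limma, adjusted p under 0.05), 7 of the 10 lay past the threshold, where 15.1% of all genes did. Without array 3 or array 6 the 7 became 4, and without array 3 the fit called 456 genes in all. Such calls of the 10 genes, here and under the alternative settings below, say on which side of the threshold a value lay and are no support for it. By direction, 4 were higher (9.41% of all genes) and 3 lower (5.69% of all genes). Across the array the fit called 836 genes, 521 higher and 315 lower, against 187 and 59 in the values as deposited, which were not centred. The median of the 10 means was 0.33 and that of all genes 0.0053, while the median size regardless of sign was 0.87 for the 10 genes and 0.20 for all genes.

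**Figure D1:**
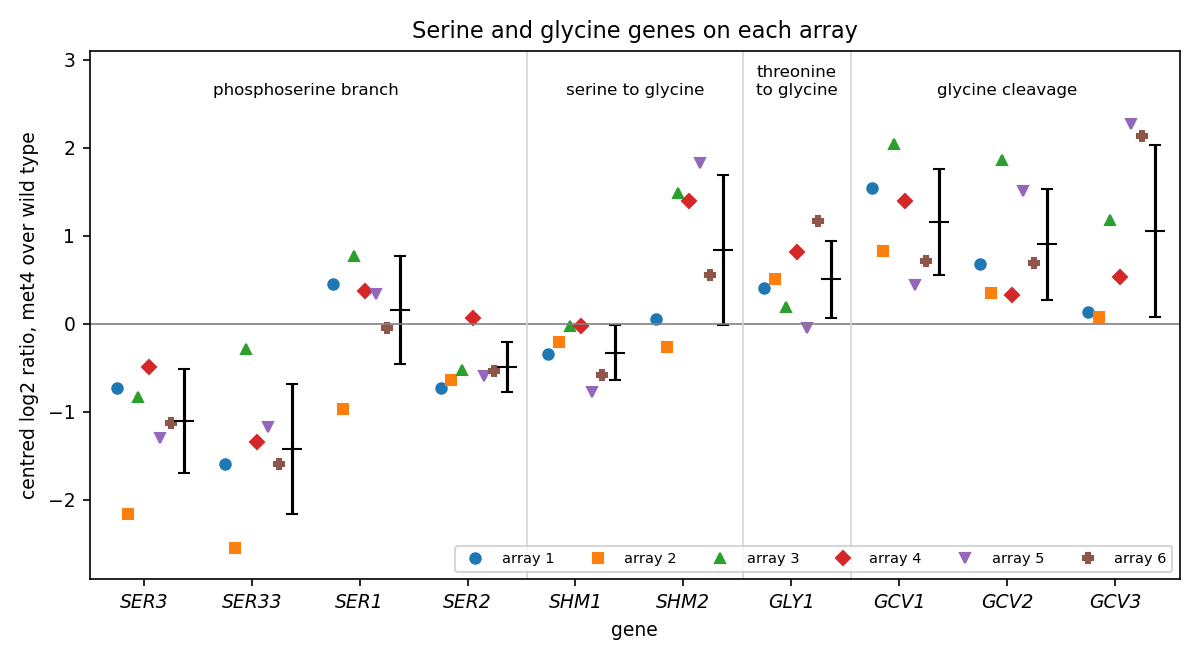
Centred log2 ratios (met4 over wild type, vertical axis) of the 10 genes, grouped by pathway step, with 1 symbol for each of the 6 arrays and the mean with its SD as a black bar. SER3 and SER33 lie below 0 on all 6 arrays and GCV1, GCV2 and GCV3 above 0 on all 6.

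The first enzyme of serine synthesis gave the lowest values of the 10 genes. SER33 (YIL074C) had -2.55 on its lowest array, a median of -1.47 and -0.29 on its highest. All 6 arrays had it below 0, with a mean of -1.43 ± 0.73, or 2.69-fold lower, which placed it 12th from the bottom of the 5539 genes (12th from the top were wild type the numerator). Array 3 stood apart from the rest: there SER33 was at the 26.8th percentile of genes, while on the other 5 arrays it was at the 2.08th percentile or below.

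SER3 (YER081W), the paralog of SER33 with the same enzymatic step, had -2.17 on its lowest array, a median of -0.98 and -0.49 on its highest. Its mean was -1.11 ± 0.59, or 2.16-fold lower, and it too was below 0 on 6 of 6 arrays. The range of SER3 lay within that of SER33, and the lowest value of each came from array 2. Within arrays SER33 minus SER3 averaged -0.32 ± 0.56, with SER33 the lower of the pair on 4 arrays and the higher on arrays 3 and 5. Their order is therefore not separated from the spread. After centring by print-order run SER33 was the lower on array 5 too, at -1.21 against -1.11 for SER3. Without the probe sequences, hybridisation of either transcript to the spots of its paralog cannot be judged. Both values lay past the threshold as lower in the 14 alternative settings, including without each array. As deposited, both were above 0 on array 3 (SER33 at 0.63 and SER3 at 0.09), the array with the highest median.

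SER2 (YGR208W), the phosphatase of the last step, was lower by less. Its lowest array gave -0.73, its median was -0.57 and its highest array gave 0.07, with a mean of -0.49 ± 0.28. Array 4 was the one above 0, and the other 5 lay between -0.73 and -0.53. The 2 spots of SER2 disagreed on array 4, at 0.30 and -0.17. After centring by print-order run SER2 was at -0.18 on array 4 and below 0 on all 6 arrays. SER2 was not past the threshold as deposited, with the first spot of each gene alone, or without array 1, 3, 5 or 6.

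SER1 (YOR184W), the aminotransferase between these steps, did not lie low with its neighbours. It had -0.97 on array 2, a median of 0.35 and 0.77 on array 3, and its mean of 0.15 ± 0.61 was not past the threshold in any of the settings. It was above 0 on 4 arrays and below 0 on 2, and centring by print-order run turned the sign of its mean to -0.07. Array 2, which held the lowest values of SER33 and SER3, also held that of SER1. On array 2 the mean of the 4 phosphoserine genes was -1.58, and on the other arrays it ran from -0.83 to -0.22.

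The means of the isoenzymes of serine hydroxymethyltransferase lay on opposite sides of the array median. SHM2 (YLR058C), the cytosolic form, had -0.27 on array 2, a median of 0.97 and 1.83 on array 5, with a mean of 0.84 ± 0.85, or 1.79-fold higher. Arrays 3, 4 and 5 were at 1.39 or above, and arrays 1 and 2 lay near the array median. SHM1 (YBR263W), the mitochondrial form, had -0.78 on its lowest array, a median of -0.28 and -0.02 on its highest. It was below 0 on 6 of 6 arrays, yet its mean of -0.33 ± 0.31 was not past the threshold in any setting. Arrays 3 and 4 were near 0, each at -0.02. After centring by print-order run SHM1 was above 0 there, at 0.16 and 0.02.

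On the same array, SHM2 minus SHM1 was -0.06, 0.40, 1.14, 1.42, 1.50 and 2.61 from the lowest array to the highest, a mean of 1.17 ± 0.93. SHM2 thus stood above SHM1 on 5 arrays, with array 2 the exception. These differences do not change when an array is centred on its median, but centring by print-order run can change them. After it SHM2 was at -0.439 and SHM1 at -0.455 on array 2, so that SHM2 was slightly above there too. SHM2 was no longer past the threshold without array 3, 4, 5 or 6, or after centring by print-order run.

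GLY1 (YEL046C), threonine aldolase, leaned towards the high side. Its lowest array gave -0.05, its median was 0.45 and its highest array gave 1.16, with a mean of 0.50 ± 0.44 that was not past the threshold. It was above 0 on 5 arrays. On array 5, the exception, its spots stood at 0.37 and -0.47. GLY1 passed as higher with quantile normalization, with the first spot alone and without array 5.

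**Figure D2:**
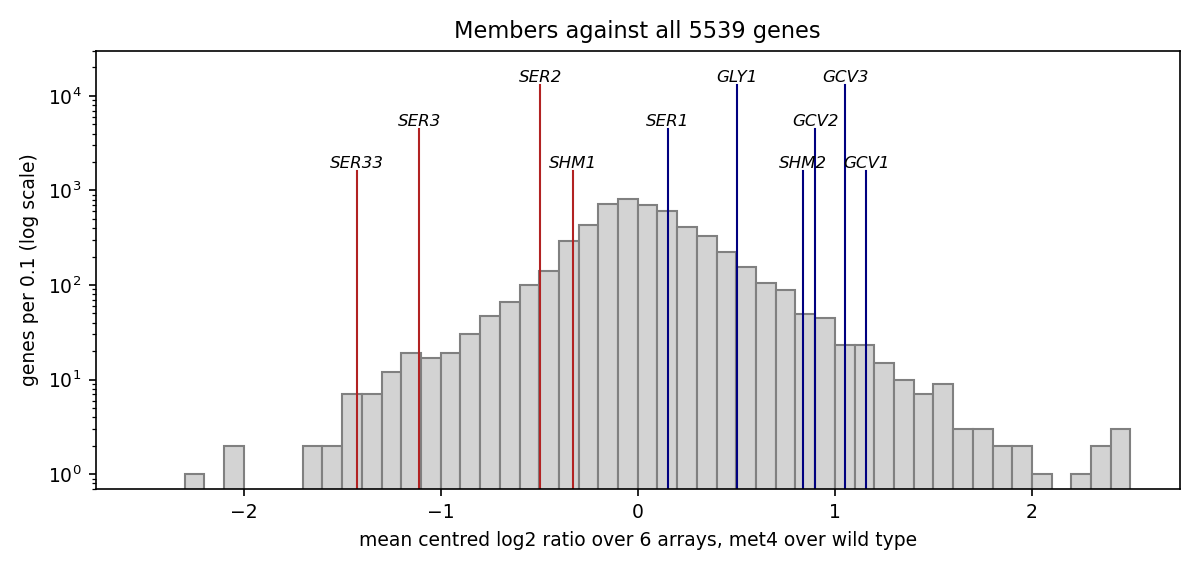
Histogram of the mean centred log2 ratio (horizontal axis) of all 5539 genes, with the number of genes per bin on a log vertical axis and a labelled line at each of the 10 genes, red below 0 and blue above. SER33 at -1.43 and GCV1 at 1.16 lie in the tails, and SER1 at 0.15 lies near the centre.

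All 3 glycine cleavage genes were above the array median on 6 of 6 arrays, as were 9.89% of all genes. After centring by print-order run GCV3 was at -0.01 on array 1 and above 0 on the other arrays. GCV1 (YDR019C) had 0.44 on its lowest array, a median of 1.11 and 2.04 on its highest. Its mean of 1.16 ± 0.60, or 2.23-fold higher, was the highest of the 10 genes and the 64th highest of all (the lowest of the 10 and the 64th lowest were wild type the numerator). It was at the 81.3rd percentile or above on every array.

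GCV2 (YMR189W) had 0.33 on its lowest array, a median of 0.69 and 1.86 on its highest, with a mean of 0.90 ± 0.63. Arrays 3 and 5 were high, at 1.86 and 1.50, and the other 4 lay between 0.33 and 0.69. GCV1 and GCV2 were past the threshold as higher in all 14 alternative settings.

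GCV3 (YAL044C) varied most of the 10 genes, with 0.07 on its lowest array, a median of 0.85 and 2.27 on its highest. Its mean was 1.05 ± 0.97. Arrays 5 and 6 stood at 2.27 and 2.14, and arrays 1 and 2 near 0, at 0.14 and 0.07. GCV3 missed the threshold without array 3, 5 or 6 and after centring by print-order run. As deposited it was above 0 on all 6 arrays, whereas GCV1 and GCV2 were below 0 on array 6, which had the lowest median.

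The subunit genes did not keep the same order across arrays. GCV1 was the highest of the 10 genes on arrays 1, 2, 3 and 4, and GCV3 was the highest on arrays 5 and 6. On array 4 SHM2 was level with GCV1, both at 1.39. GCV3 minus GCV1 ran from -1.41 to -0.75 on arrays 1, 2, 3 and 4 and was 1.83 on array 5 and 1.42 on array 6. Over all 6 arrays this difference averaged -0.11 ± 1.37, so the order of their means is not separated from the spread.

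Cleavage genes and dehydrogenase genes were separated on every array. The lowest of GCV1, GCV2 and GCV3 exceeded the higher of SER3 and SER33 by 0.82 on array 4, where they came closest, and by 2.24 on array 2, where they lay furthest apart. The mean gap was 1.47 ± 0.55. The gap is a difference within an array and is the same as deposited. Leaving out an array, scaling it or normalizing it by ranks could not turn its sign, so these settings say nothing about it. Centring by print-order run and the first spot alone could turn it. Under these the gap was above 0 on all arrays, with smallest array values of 0.66 and 0.76. Had wild type been the numerator, the sides would be exchanged and the gap would have the same size. These genes were seen to lie apart before the gap was calculated, so it is a description.

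In order of their means the 10 genes ran from SER33 through SER3, SER2, SHM1, SER1, GLY1, SHM2, GCV2 and GCV3 to GCV1. Of the 9 steps between neighbours, 1 exceeded its own SD over arrays, that between SER2 and SER3 (0.61 ± 0.51, with SER2 above SER3 on 6 of 6 arrays). The other 8 neighbouring pairs did not differ beyond their spread. In all, 3 genes were above 0 on 6 of 6 arrays, 3 were below 0 on 6 of 6 (SER33, SER3 and SHM1; 8.18% of all genes) and 4 had both signs. With centring by print-order run GCV3 and SHM1 had both signs, and SER2 was below 0 on 6 of 6 arrays. The span from the lowest to the highest of the 10 ran from 2.74 on array 4 to 3.73 on array 6.

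**Figure D3:**
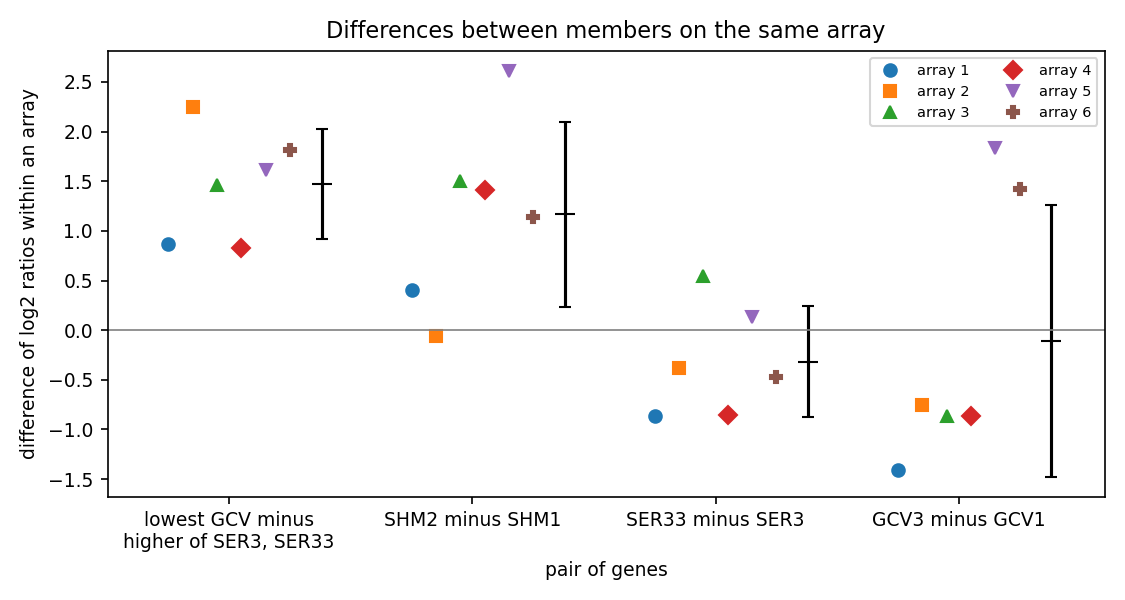
Differences of log2 ratios between genes on the same array (vertical axis) for the pairs named on the horizontal axis, with 1 symbol per array and the mean with its SD as a black bar. The gap between the lowest GCV gene and the higher of SER3 and SER33 is above 0 on all 6 arrays, and SER33 minus SER3 and GCV3 minus GCV1 fall on both sides of 0.

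Duplicate spots of the 10 genes differed by a median of 0.08 over 60 pairs of gene and array. The difference passed 0.5 in 2 of the 60, GLY1 and SER3 on array 5 (0.85 and 0.84). For SER3 both spots there were low, at -1.72 and -0.88.

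The genes connected to the pathway were read from the same fit as 6 lists. The lists were written from general knowledge of yeast but with earlier results of these data known, among them that of CYS4, so their calls are not independent of those results. Of 42 measured genes in these lists 3 rose, 2 fell and 37 did not pass, so that 11.9% were called, where 15.1% of all genes were. The 5 calls became 2 as deposited, 9 after centring by print-order run and 3 without array 3.

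Among genes for the other ways in which serine and glycine are made or used, 1 of 8 rose, 2 fell and 5 did not pass. That is 37.5% called, where 15.1% of all genes were. CHO1, the phosphatidylserine synthase that joins serine to a lipid, rose by 1.11 ± 0.60 and was higher on 6 of 6 arrays (limma, adjusted p = 0.00295). Its values ran from 0.47 on array 3 to 2.12 on array 4. CYS4, cystathionine beta-synthase, which joins serine to homocysteine, fell by 1.28 ± 0.57 and was lower on 6 of 6 arrays (limma, adjusted p = 0.00113). CHO1 and CYS4 kept their calls in all 14 alternative settings, with adjusted p up to 0.0180 and 0.0103. HEM25, a mitochondrial glycine carrier that serves haem synthesis, fell by 0.60 ± 0.36 and was lower on 6 of 6 arrays (limma, adjusted p = 0.0172). Its call was lost as deposited (0.582), with centring by print-order run (0.0901) and without array 3 (0.0644) or array 5 (0.0642). AGX1, the alanine-glyoxylate aminotransferase that makes glycine, stood at 0.36 ± 0.25 (adjusted p = 0.0865), and HEM1, which uses glycine for haem, at 0.04 ± 0.32.

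Of 9 purine synthesis genes, whose pathway takes up glycine and one-carbon units, 2 rose, none fell and 7 did not pass. That is 22.2% called, where 15.1% of all genes were called and 9.41% were higher. ADE2, phosphoribosylaminoimidazole carboxylase, rose by 0.75 ± 0.27 and was higher on 6 of 6 arrays (limma, adjusted p = 0.00366). ADE16, an isoenzyme of the last steps, which use formyl-tetrahydrofolate, rose by 0.63 ± 0.40 and was higher on 5 of 6 arrays (limma, adjusted p = 0.0172). The call of ADE16 was lost as deposited (0.181) and without array 3 (0.0651) or array 6 (0.0567), and that of ADE2 as deposited (0.0892). The list median was 0.36 and its means ran from 0.13 to 0.75, all above the median of all genes. On array 2 ADE1, ADE4, ADE12, ADE13, ADE16 and ADE17 lay below 0, and ADE2, ADE6 and ADE8 above. ADE3, placed in the folate list, stood at -0.31. ADE17, the paralog of ADE16, stood at 0.73 ± 0.86 (adjusted p = 0.0704). ADE5,7 was not analysed here.

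The cleavage complex also needs a dehydrogenase and lipoate that it shares with other enzymes. Of 4 lipoyl partner genes 0 passed in limma, and 0 had an unadjusted p under 0.05. The share of all genes under this unadjusted cut was not counted. It is at least the 15.1% that passed, so such counts, here and in the lists below, are a description. LPD1, the dihydrolipoamide dehydrogenase that the complex shares with pyruvate dehydrogenase, stood at 0.26 ± 0.52 (adjusted p = 0.355), and the lipoate synthesis genes LIP2, LIP5 and AIM22 at -0.17, -0.11 and -0.07.

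Of 12 folate one-carbon genes 0 passed in limma, and 3 had an unadjusted p under 0.05: MET7, folylpolyglutamate synthetase (-0.36 ± 0.28; adjusted p = 0.0933), DFR1, dihydrofolate reductase (-0.36 ± 0.36), and ADE3, the cytosolic C1-tetrahydrofolate synthase (-0.31 ± 0.32). MIS1, its mitochondrial counterpart, stood at 0.09 ± 0.41 and MTD1, a cytosolic methylenetetrahydrofolate dehydrogenase, at 0.07 ± 0.34. The count of 3 is not set against a counted share of all genes and is no result about the list.

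None of 5 regulator genes passed in limma, and 0 had an unadjusted p under 0.05. The transcript of GCN4, the activator of amino acid synthesis genes, stood at 0.02 ± 0.38, and those of BAS1 and PHO2, which together activate purine and glycine cleavage genes, at 0.20 ± 0.36 and 0.31 ± 0.51. PHO2 had the smallest adjusted p, 0.257, and passed with centring by print-order run alone (0.0331). Transcript levels do not show the activity of such proteins. Of 4 permease genes 0 passed in limma and 0 had an unadjusted p under 0.05, with AGP1 the lowest at -0.36 ± 0.59 (adjusted p = 0.237).

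**Figure D4:**
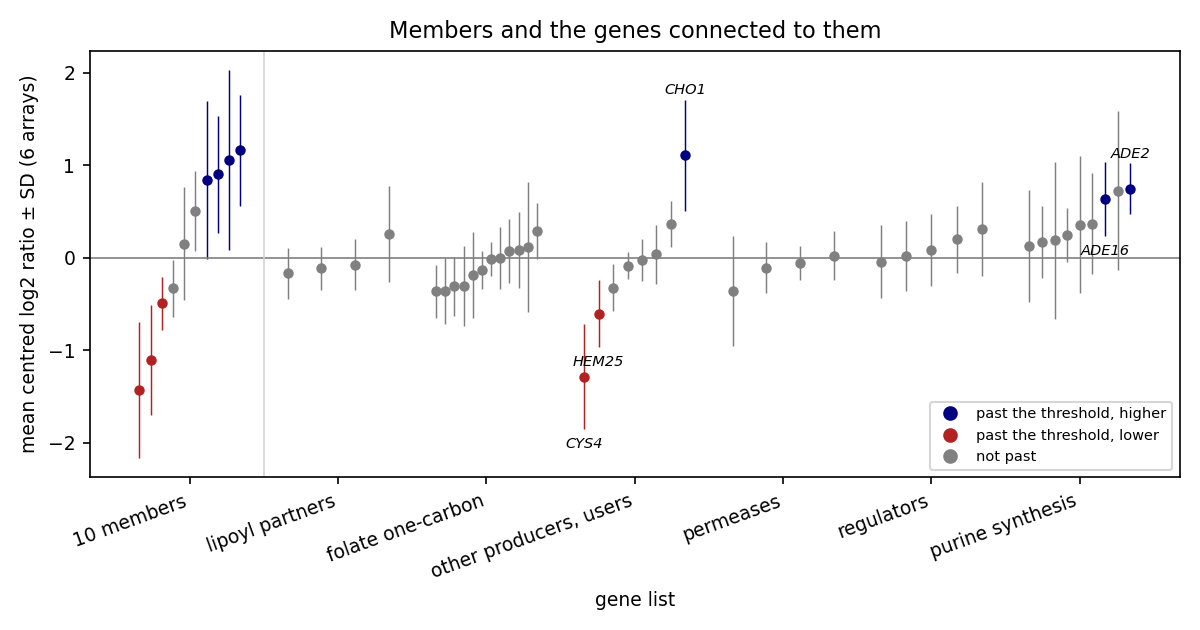
Mean centred log2 ratio with its SD over 6 arrays (vertical axis) for the 10 members and for the 6 lists of connected genes (horizontal axis), blue where the gene was past the limma threshold as higher, red as lower and grey where it was not. CHO1, ADE2 and ADE16 are higher, CYS4 and HEM25 are lower, and the remaining 37 connected genes are grey.

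Likeness of values was measured as the root mean square difference of log2 ratios over the 6 arrays, which counts level as well as pattern. The genes outside the 10 nearest to SER33 were DLD3 (0.39), CYS4 (0.44) and RPL31A, a ribosomal protein gene (0.57). Those nearest to the mean of GCV1, GCV2 and GCV3 were AMS1, vacuolar alpha-mannosidase (0.11), RPT3, a proteasome ATPase (0.18), and IGD1, an inhibitor of glycogen debranching (0.19). The nearest genes to the GCV mean had means between 0.87 and 1.09, and those nearest to SER33 between -1.54 and -1.19. Means near those of the targets follow from this choice of distance. The GCV mean averages genes whose order changed between arrays, so it need not be the profile of any 1 of them. Averaging also evens out spread, so distances to it are not comparable with distances to SER33, a single gene. All of these genes share the same 6 arrays, and with them any array-wide effect that centring on the median leaves.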

How the data were processed

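The authors deposited 1 table of log ratios for 13056 spots on 6 arrays, with values from -3.57 to 5.32. Reading the deposited values as log2 is an assumption, since this range fits natural logarithms as well. The sources used here state no scanner, background correction, normalization or log base. No intensities were used, so dim spots could not be marked and the arrays' number limits precision. Exact zeros (134) were set to missing, each array was centred on its median over all spots, and the spots of a gene were averaged. The platform annotation names 11138 spots with 1 symbol each, several for 0 and none for 1918, giving 5539 genes, of which all but 5 matched the R64 gene table. All had values on at least 4 arrays. The mean of each gene was compared with 0 by limma 3.58.1 (R 4.3.3; an intercept and eBayes), with p-values adjusted over all genes (Benjamini-Hochberg) and a threshold of 0.05. The step was tested on simulated data with 5539 genes for this comparison and recovered 37.3%, 89.6% and 98.5% of changes of 0.5, 1 and 2 (log2), with 9 of 159 calls false.

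The 10 genes and the 6 lists were chosen with earlier results of these data known. Named genes were the 10, MET4, in each list the 3 largest called genes at most (or the 1 with the smallest adjusted p), and the 3 genes nearest to SER33 and to the GCV mean. AGX1, HEM1, ADE17, LIP2, LIP5, AIM22, DFR1, ADE3, MIS1, MTD1, GCN4 and BAS1 were named in addition, after their values were seen. Alternatives were the values as deposited, scaled or quantile normalized arrays, centring of 48 runs of spots in print order, zeros kept, the first spot only, robust empirical Bayes, array weights and leaving out each array. Figures were drawn with matplotlib 3.10.9.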

Additional observations from a re-analysis of the deposited data

Results flagged for a closer look

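SER2 had 1 array far from the others. Array 4 stood at 0.0653, and the gap from it to the next array was 0.746 of the range of the 6 values, while the other 5 arrays lay between -0.73 and -0.53. The spots of SER2 on array 4 were at 0.30 and -0.17, and their part in the value was not tested. After centring by print-order run array 4 was at -0.18 and the other arrays between -0.46 and -0.23, so that it no longer stood apart. Of 25 genes checked in this way 1 was found, and chance marks about 1 group in 20.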

How the results depend on the processing

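SER33, SER3, GCV1 and GCV2 lay past the threshold, and SER1 and SHM1 did not, in all 14 alternative settings. The means of the 10 genes moved by less than 1 SD in every setting. Leaving out 1 array of 6 cannot move a mean that far, and robust empirical Bayes does not change it. The values as deposited shift all 10 means by the same amount. For these settings the outcome was therefore fixed in advance. As deposited, 246 genes were called across the array (187 above 0 and 59 below) and 2 connected genes (1 in each direction). With centring by print-order run, 2 of the 10 genes were called as higher, and 9 connected genes were called, 5 higher and 4 lower. Leaving out each array gave 456 to 965 genes called across the array, with 291 to 663 higher and 165 to 302 lower. Of the 10 genes it gave 4 to 7 called, with 2 to 4 higher and 2 to 3 lower, and the 4 came without array 3 or array 6. Of the connected genes it gave 3 to 7, with 2 to 5 higher and 1 to 2 lower. The smallest count, 3, came without array 3. Across the array, leaving out array 3, 5 or 6 gave the fewest calls, 456, 518 and 528, and array 1, 3 or 5 the fewest lower calls, 208, 165 and 191. The cause of these shifts was not tested. The MET4 call was lost as deposited (limma, adjusted p = 0.600). Each ratio already pairs mutant and wild type on 1 array, and no further block was fitted. The absence of scanner intensities means that signal over background could not be judged for any gene.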
